A study of Mus musculus with 10 samples.

Results

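The genes described here encode the proteins of the mitochondrial ribosome that carry the symbols Mrpl and Mrps. They were taken as every protein-coding gene whose symbol is Mrpl or Mrps followed by a number and at most 1 letter, in the GENCODE annotation of the GRCm38 build. This gave 77 of the 43432 genes in the count tables, 48 with an Mrpl and 29 with an Mrps symbol. Mrpl33, a further gene of the family, was not matched and is not analysed here, so the sums and counts leave it out. The symbols alone chose the members, but the family was picked for description with its levels in these libraries known, so counts over the family describe it and test nothing. Messenger RNA was sequenced from 3 sorted populations of naive male mice of the strain C57BL6.Il25(Flare25/Flare25), aged 12 weeks, which carry the reporter allele Flare25 at the cytokine gene Il25 on both chromosomes. Tuft cells of the small intestine (SI) are chemosensory epithelial cells and were sorted as DAPI-, CD45-, EPCAM+ and Flare25+ (SI tuft, 3 libraries). The same gate was used on the thymus (thymic tuft, 4 libraries), and Flare25- cells of the same gut gate served as reference (SI epithelium, 3 libraries). Of 4 replicates sorted per population, 1 of each gut group was discarded by the submitters. Each library held cells of 1 mouse, with no treatment: 52000 to 57000 cells of SI epithelium, 35000 to 36000 SI tuft cells or 1350 to 1900 thymic tuft cells. Gut cells were released with EDTA and thymic cells with enzymes and a density gradient, so organ, release method and cell number differ together and cannot be told apart. Tuft cells were defined by the reporter alone, and the reference holds all other epithelial types in 1 pool.

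Mitochondria make the core subunits of their respiratory chain complexes on their own ribosome, which resembles that of bacteria but has gained many proteins of its own. Every protein of this ribosome is encoded in the nucleus, made in the cytosol and imported, whereas its ribosomal RNAs come from mitochondrial DNA. The small subunit decodes the messenger RNA and the large subunit forms the peptide bond. They are expressed in all cells that have mitochondria, gut and thymic epithelium included. Some symbols mislead: Mrps30 and Mrps18a encode proteins of the large subunit, and Mrps36 encodes a component of the alpha-ketoglutarate dehydrogenase complex. They are counted below by what they encode, which gives 50 large subunit genes, 26 small subunit genes and Mrps36.

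Libraries held 38659882 to 73574745 counts. Levels are given as CPM, counts scaled to the library total after correction by the trimmed mean of M values (TMM). All 5 tuft markers (Pou2f3, Il25, Trpm5, Dclk1 and Avil) were called higher in both tuft groups than in SI epithelium by edgeR, with a summed level of 88.8 to 177 CPM in SI epithelium, 9917 to 12768 CPM in SI tuft and 3216 to 4019 CPM in thymic tuft libraries. Il25 carries the reporter by which the cells were sorted, so its call is no independent check of the gate. The 4 markers of thymic epithelium summed to 933 to 1098 CPM in the thymus, 4.45 to 6.74 CPM in SI epithelium and 0.0817 to 0.778 CPM in SI tuft libraries. Markers of other cells were also counted in thymic libraries, with Lyz2 of myeloid cells at 169 to 210 CPM, Dcn of fibroblasts at 9.10 to 87.9 CPM and Muc2 of goblet cells at 16.0 to 344 CPM. The 4 myeloid markers summed to 192 to 249.5 CPM there (12.5 to 18.5 CPM in SI epithelium and 7.84 to 30.0 CPM in SI tuft), most of it Lyz2. They did not move together: edgeR called 3 higher and 1 lower in thymic than in SI tuft cells, the latter with a log2 fold change of -5.92. Against SI epithelium 3 were called higher and 0 lower, with a lowest log2 fold change of -3.58. The 5 fibroblast and endothelium markers summed to 10.8 to 108 CPM in thymic libraries (at most 3.18 CPM in the gut groups). The 7 markers of gut epithelium, Muc2 among them, summed to 390 to 791 CPM in thymic libraries. Their sum was 5487 to 5975 CPM in SI tuft and 38225 to 41856 CPM in SI epithelium libraries. By edgeR 5 of the 7 were called lower in thymic than in SI tuft cells (23.1% of all genes were). Against SI epithelium 6 were called lower (22.3% of all genes), and 0 were higher in either comparison. The 6 T cell markers summed to 22.5 to 34.6 CPM in SI tuft, 2.50 to 5.80 CPM in SI epithelium and 8.89 to 29.8 CPM in thymic tuft libraries, with 1 of the 6, Lck, called higher in SI tuft than in SI epithelium libraries by edgeR. Markers of B cells (3 genes) reached at most 7.09 CPM in any library and of red cells (3 genes) 7.07 CPM. The part of any of these cells in the results was not tested. Each SI epithelium library also held counts in the proportions of thymic libraries, at up to 0.847% of a thymic library's counts over 282 genes, and thymic libraries held up to 0.872% of an SI epithelium library's over 11 genes. Genes encoded in mitochondrial DNA took 18.6% to 23.7% of the counts in SI epithelium, 24.1% to 33.5% in SI tuft and 4.38% to 5.97% in thymic tuft libraries.

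Promoters of the family were read from the RefSeq windows of the GRCm38.p6 assembly, which cover 250 bases before to 50 bases after each start, and 68 of the 77 genes matched. They were searched on both strands for the core sites of 3 factors known to control nuclear genes for mitochondria. The NRF1 site was found in 13 of the 68 genes (19.1%), against 5.19% of all 27025 genes with a window. CCGGAAG, the core site of ETS factors such as GABP, was found in 25 (36.8% against 9.93%), and the YY1 site in 7 (10.3% against 1.17%). At least 1 of these sites, none of which contains another, stood in 38 of the 68 genes (55.9% against 14.8%). The 27025 genes include genes that were not tested in these libraries, and the family was not compared with the tested genes alone. The bases before the start of 4 genes that the results below turn on are shown, with matches in capitals. The first 3 had some of the largest decreases in thymic tuft cells and the last had higher counts in SI tuft cells. Mrps31 had larger decreases than these 3 and Mrpl54 a larger rise than the last, and neither is shown. All 4 printed genes hold a match, beside 38 of the 68, so they cannot show whether matches and changes go together.
Mrpl12 (chr11:120484387-120484636, plus strand, match to the NRF1 site): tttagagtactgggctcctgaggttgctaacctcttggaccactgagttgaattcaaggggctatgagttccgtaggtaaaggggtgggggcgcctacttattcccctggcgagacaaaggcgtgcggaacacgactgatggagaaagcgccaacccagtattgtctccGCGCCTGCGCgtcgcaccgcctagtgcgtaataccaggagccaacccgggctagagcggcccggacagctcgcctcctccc
Mrpl34 (chr8:71464676-71464925, plus strand, match to the ETS site): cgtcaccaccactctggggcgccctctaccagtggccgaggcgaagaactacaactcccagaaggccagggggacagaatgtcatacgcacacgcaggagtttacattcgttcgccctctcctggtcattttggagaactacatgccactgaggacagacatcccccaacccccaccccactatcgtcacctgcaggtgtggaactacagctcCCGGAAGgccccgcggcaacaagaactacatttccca
Mrps22 (chr9:98601680-98601929, minus strand, match to the ETS site): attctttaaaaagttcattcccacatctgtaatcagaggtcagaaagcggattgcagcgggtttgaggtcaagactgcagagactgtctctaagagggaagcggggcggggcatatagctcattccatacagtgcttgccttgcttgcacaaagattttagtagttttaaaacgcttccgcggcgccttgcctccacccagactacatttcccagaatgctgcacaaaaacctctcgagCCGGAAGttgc
Mrpl43 (chr19:45006443-45006692, minus strand, a pair of matches to the ETS site): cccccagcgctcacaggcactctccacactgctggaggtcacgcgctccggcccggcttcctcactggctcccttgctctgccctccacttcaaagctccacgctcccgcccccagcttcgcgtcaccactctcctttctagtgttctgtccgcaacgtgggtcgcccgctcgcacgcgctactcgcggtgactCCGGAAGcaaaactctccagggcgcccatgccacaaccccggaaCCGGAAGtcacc
The match begins 81 bases before the start in Mrpl12, 37 in Mrpl34 and 11 in Mrps22, and the nearer match of Mrpl43 begins 12 bases before it. A match is a run of letters and not a measured binding site. The share with any match was 55.9% of the 34 matched genes that were called lower in thymic tuft cells than in both gut groups, and 46.2% of the 13 called in neither comparison.

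The family was expressed at low to moderate levels. Over the 76 members that passed the count filter the median level was 29.6 CPM in SI epithelium (lowest 0.356, highest 158 CPM), 26.5 CPM in SI tuft cells (0.0517 to 422 CPM) and 11.9 CPM in thymic tuft cells (0.231 to 74.9 CPM). Mrpl53 was the only member below the filter, with 7 counts over all 10 libraries; 88.0% of its exon length is shared with another annotated gene, Gm42688, on the same strand. Levels of different genes were compared per kilobase of exon. In SI epithelium the highest were Mrpl34, encoding a small protein of the large subunit (136 CPM per kilobase), Mrpl52 (74.9) and Mrpl12, encoding the stalk protein that recruits translation factors (49.3), the last next to Mrpl30 (48.9). In SI tuft cells Mrpl54 came first (512 CPM per kilobase), before Mrpl34 (116) and Mrpl52 (71.4). In thymic tuft cells Mrpl52 (28.3), Mrps21 (27.0) and Mrpl54 (26.9) were highest and their libraries overlapped. The lowest in every group were Mrps34, Mrpl23 and Mrpl53, none above 0.927 CPM per kilobase. Mrps34 shares 63.4% of its exon length with Mapk8ip3 and 37.0% with Nme3. In all, 32 members share some exon sequence with another annotated gene and, because the library kit marks no strand, their counts are uncertain to that extent. The share was at least 10%, with a gene in the count tables, for 16 members: Mrpl10, Mrpl12, Mrpl14, Mrpl18, Mrpl19, Mrpl24, Mrpl43, Mrpl46, Mrpl47, Mrpl53, Mrps6, Mrps18b, Mrps24, Mrps25, Mrps27 and Mrps34.

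Summed over the 77 genes, the level was 2569 ± 48.4 CPM (SD, n = 3) in SI epithelium, 2914 ± 197 CPM (n = 3) in SI tuft cells and 1235 ± 253 CPM (n = 4) in thymic tuft cells. The 4 thymic libraries ranged from 1036 to 1579 CPM and lay below every gut library, the lowest of which was at 2514 CPM. In bulk libraries such as these, fewer expressing cells and less RNA per cell cannot be told apart. As a share of counts from nuclear genes, which leaves out the mitochondrial transcripts, the family took 0.285% to 0.301% in SI epithelium, 0.290% to 0.312% in SI tuft and 0.149% to 0.227% in thymic tuft libraries. Of all counts it took 0.226% to 0.233%, 0.208% to 0.221% and 0.140% to 0.217%, with thymic library 2 above SI tuft libraries 2 and 4. The size of the decrease thus depends on the scaling, with TMM factors of 1.33 to 1.43 in thymic and 0.661 to 0.900 in gut libraries. Large subunit genes summed to 1876 ± 34.7, 2254 ± 145 and 919 ± 188 CPM in the 3 groups, and small subunit genes to 684 ± 15.1, 645 ± 50.9 and 313 ± 64.8 CPM. The ratio of the mean level per kilobase of large to small subunit genes was 1.60 to 1.66 in SI epithelium, 2.28 to 2.55 in SI tuft and 1.43 to 1.63 in thymic tuft libraries. Without Mrpl54 the ratio was 1.56 to 1.62, 1.54 to 1.60 and 1.34 to 1.56, so the separation of SI tuft libraries from SI epithelium libraries rested on that gene.

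**Figure D1:**
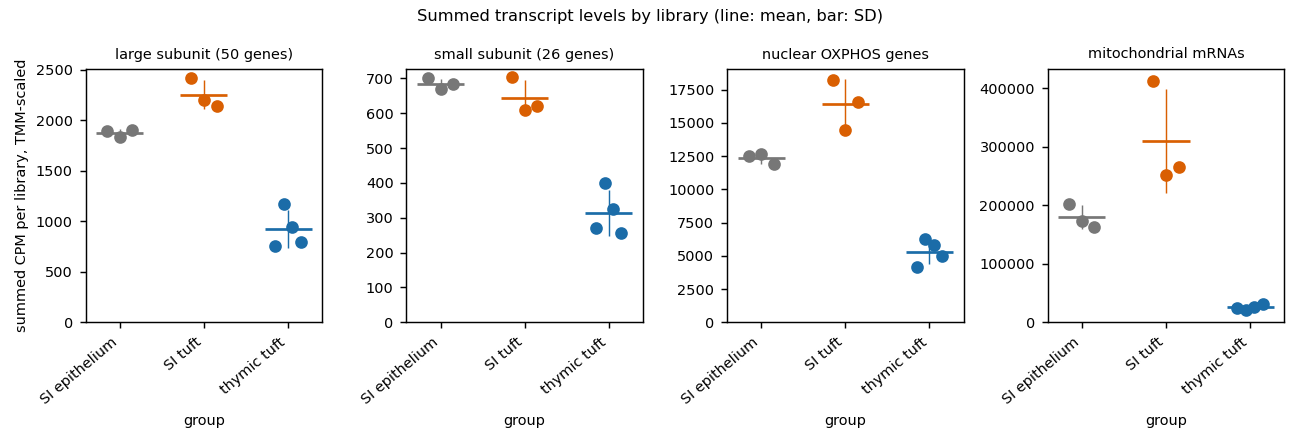
Summed CPM per library (y axis, TMM-scaled, from 0) of large subunit genes, small subunit genes, nuclear genes for oxidative phosphorylation (OXPHOS) and mitochondrially encoded mRNAs in the 3 groups (x axis). Points are libraries, horizontal lines means and vertical lines SD; the 4 thymic tuft libraries lie below all gut libraries in each panel.

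SI tuft cells were first compared with SI epithelium, which sets tuft cells beside their Flare25- neighbours in the gut. Few Mrp genes were called between these groups when the spread was estimated over all 3 groups. By edgeR 3 of the 76 tested members were called higher (10.9% of all 19281 genes tested were), all of them large subunit genes: Mrpl54, Mrpl46 and Mrpl43. A further 3 were called lower (11.4% of all genes): the large subunit genes Mrpl45 and Mrpl3 and the small subunit gene Mrps10. The median log2 fold change of the 76 was -0.08, beside -0.10 for all tested genes. For 17 members every SI tuft library was above every SI epithelium library (22.8% of all genes). For 28 every one was below (28.4% of all genes). These calls use a spread estimated over all 3 groups. Where only the SI libraries entered the fit, 14 members were higher (21.6% of all genes in that fit) and 21 lower (21.9%), among them all 6 of the first fit. With 1 library left out in turn, 1 to 6 members were higher (7.08% to 13.4% of all genes) and 1 to 7 lower (6.91% to 14.7%).

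Mrpl54, encoding a large subunit protein without a bacterial counterpart (ENSMUSG00000034932, GRCm38 chromosome 10, 81264713 to 81266934, minus strand), stood apart from all other members. It was at 35.6, 39.7 and 32.8 CPM in SI epithelium and 413, 466 and 388 CPM in SI tuft libraries. In thymic tuft libraries it was at 13.3, 28.1, 22.7 and 24.8 CPM. Every SI tuft library was far above all 7 others, and the log2 fold change against SI epithelium was 3.55 (SE 0.26, edgeR adjusted p = 1.05e-06). The next gene, Matk, a tyrosine kinase gene known from blood cells, lies tail to tail with it on the other strand with a gap of 1348 bases. Matk was at 21.4 ± 5.10 CPM (SD, n = 3) in SI epithelium, 2333 ± 302 CPM (n = 3) in SI tuft and 62.8 ± 15.3 CPM (n = 4) in thymic tuft libraries, and thus high where Mrpl54 was high. Apba3, an adaptor protein gene whose start lies 26 bases from that of Mrpl54 on the other strand, was called higher too (32.5 ± 3.55 to 121 ± 7.46 CPM, log2 fold change 1.90, edgeR adjusted p = 0.00039). Between thymic tuft cells and SI epithelium Mrpl54 and Matk went in opposite directions, with log2 fold changes of -0.70 and 1.55. Whether reads from these neighbours entered the counts of Mrpl54 was not tested.

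Mrpl43, also a large subunit gene without a bacterial counterpart (ENSMUSG00000025208, chromosome 19, 45004829 to 45006442, minus strand), was at 47.4, 47.1 and 51.7 CPM in SI epithelium and 124, 80.6 and 88.8 CPM in SI tuft libraries. All SI tuft libraries were above all SI epithelium libraries (log2 fold change 1.00, SE 0.24, edgeR adjusted p = 0.0108). The call ended without SI epithelium library 2 and without SI tuft library 2, the highest (edgeR or DESeq2 adjusted p over all alternatives 0.000835 to 0.0577). Its neighbour Sema4g, a semaphorin gene that ends 1432 bases from it on the other strand, was at 544 ± 83.5 CPM (SD, n = 3) in SI epithelium and 1860 ± 186 CPM (n = 3) in SI tuft cells. Of Mrpl43, 33.4% of the exon length overlaps Twnk, the helicase gene for mitochondrial DNA, which was at 16.8 and 14.9 CPM. The part of these neighbours in the counts was not tested.

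Mrpl46 (large subunit, chromosome 7, 78775236 to 78783531, minus strand) and Mrps11 (small subunit, 78783119 to 78792989, plus strand) form a head-to-head pair, whose RefSeq starts lie 42 bases apart and whose exons share 173 bases. Mrpl46 was at 27.9, 26.5 and 31.8 CPM in SI epithelium and 79.5, 60.4 and 63.3 CPM in SI tuft libraries. Mrps11 was at 13.9, 19.4 and 13.1 against 34.5, 49.1 and 39.8 CPM. For both genes the SI tuft libraries lay above all SI epithelium libraries. Only Mrpl46 passed the test (log2 fold change 1.24, SE 0.41, edgeR adjusted p = 0.0498, against 1.41, SE 0.65 and adjusted p = 0.145 for Mrps11). Its call ended under 12 of 20 alternatives, removal of any 1 of the 6 SI libraries or of thymic library 1 or 3 among them (edgeR or DESeq2 adjusted p over all alternatives 0.000137 to 0.153).

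**Figure D2:**
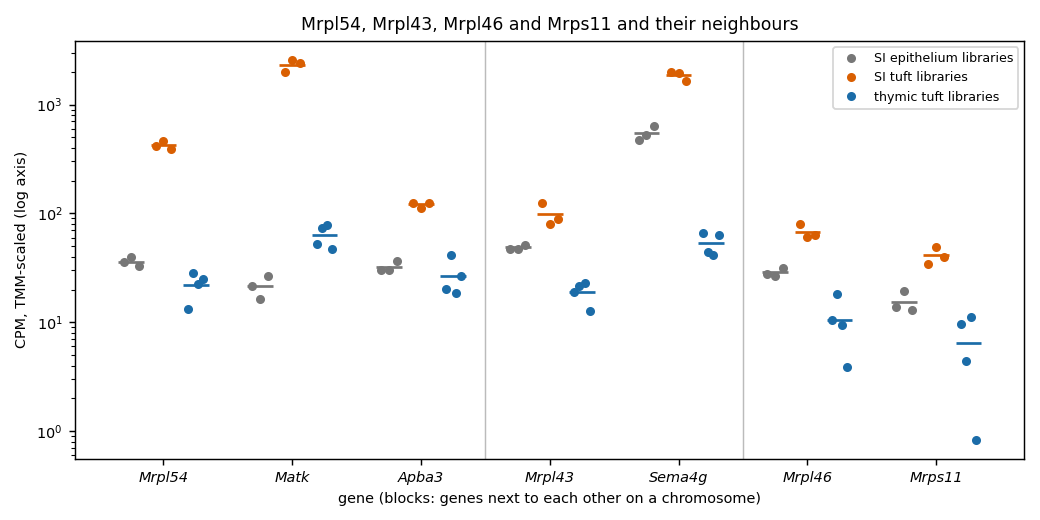
Level of Mrpl54, Mrpl43, Mrpl46 and Mrps11 and of neighbouring genes (y axis, TMM-scaled CPM, log axis) by gene (x axis, blocks hold neighbours on a chromosome). Points are libraries of SI epithelium, SI tuft and thymic tuft cells and lines are means; in each of the 7 genes the SI tuft libraries lie above all others, for Matk at 1998 to 2583 CPM.

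Of the members called lower in SI tuft cells, Mrpl45, whose protein lies at the exit of the peptide tunnel, was the firmest. It was at 30.3, 32.4 and 29.8 CPM in SI epithelium and 14.6, 13.3 and 15.4 CPM in SI tuft libraries, with no overlap (log2 fold change -1.10, SE 0.23, edgeR adjusted p = 0.00463), and the call held under all 20 alternatives. Thymic tuft libraries, at 16.1, 18.8, 17.3 and 17.4 CPM, were also below SI epithelium (log2 fold change -0.83, edgeR adjusted p = 0.00634). Mrpl3, a core protein of the large subunit, was at 35.6, 31.9 and 42.7 against 27.6, 16.8 and 14.2 CPM (log2 fold change -0.91, SE 0.30, edgeR adjusted p = 0.0477). Mrps10, a core protein of the small subunit head, was at 26.3, 28.9 and 25.3 against 12.7, 17.1 and 13.0 CPM (log2 fold change -0.91, SE 0.30, edgeR adjusted p = 0.0487). For both genes the groups did not overlap, yet either call ended under 10 of 20 alternatives, among them removal of any 1 SI epithelium library and of SI tuft libraries 3 or 4, of SI tuft library 2 for Mrps10 and of thymic library 3 for Mrpl3 (adjusted p 0.0116 to 0.176 and 0.00332 to 0.172). Mrps28, a small subunit gene at 17.4 to 19.0 CPM in SI epithelium and 6.15 to 9.06 CPM in SI tuft libraries, just missed the threshold (log2 fold change -1.30, SE 0.43, edgeR adjusted p = 0.0502).

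Thymic tuft cells were compared with SI tuft cells, which pass the same gate in another organ, and with SI epithelium. Both use the same 4 thymic libraries, so their results are given side by side and not as independent. Against SI tuft cells 44 of 76 members were called lower (23.1% of all genes were) and 2 higher (28.5% of all genes), with a median log2 fold change of -0.998, beside 0.12 for all genes. Against SI epithelium 52 of 76 were called lower (22.3% of all genes) and 0 higher (28.6% of all genes), with a median of -1.06, beside 0.15 for all genes. At an unadjusted p below 0.05 in edgeR also 0 were higher (31.6% of all genes) and 59 lower (25.2%). The DESeq2 Wald test called 1 higher, Mrpl38 (35.2% of all genes), and 43 lower (19.4%). Libraries did not overlap for 45 members lower than in SI tuft cells (24.9% of all genes) and 1 higher (26.3%), and for 57 lower than in SI epithelium (27.4%) and 0 higher (28.1%). Where DESeq2 size factors replaced TMM, all genes moved up by about the same amount: the medians of all genes became 0.36 and 0.38, those of the members -0.76 and -0.83. The difference between them stayed at -1.12 and -1.22, which such a common shift leaves almost unchanged. With a filter of 10 CPM in 3 libraries, 67 members remained and the differences were smaller, at -0.79 and -0.96. There 33 were lower than in SI tuft cells (30.5% of all genes) and 44 lower than in SI epithelium (29.7%). Where only the 2 tuft groups entered the fit, 27 members were lower in thymic tuft cells (17.3% of all genes in that fit). By call, 34 members were lower in thymic tuft cells than in both gut groups without a call between the gut groups. Of the others, 12 were lower than in SI epithelium alone, 7 lower than in SI tuft cells alone and 15 were called in no comparison. Mrpl54, Mrpl46 and Mrpl43 were highest in SI tuft cells and lowest in thymic tuft cells, with a call in all 3 comparisons. Both subunits took part, with 29 of 49 large and 14 of 26 small subunit genes lower than in SI tuft cells, and 36 of 49 and 15 of 26 lower than in SI epithelium (medians -0.99 and -1.06, then -1.05 and -1.08).

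**Figure D3:**
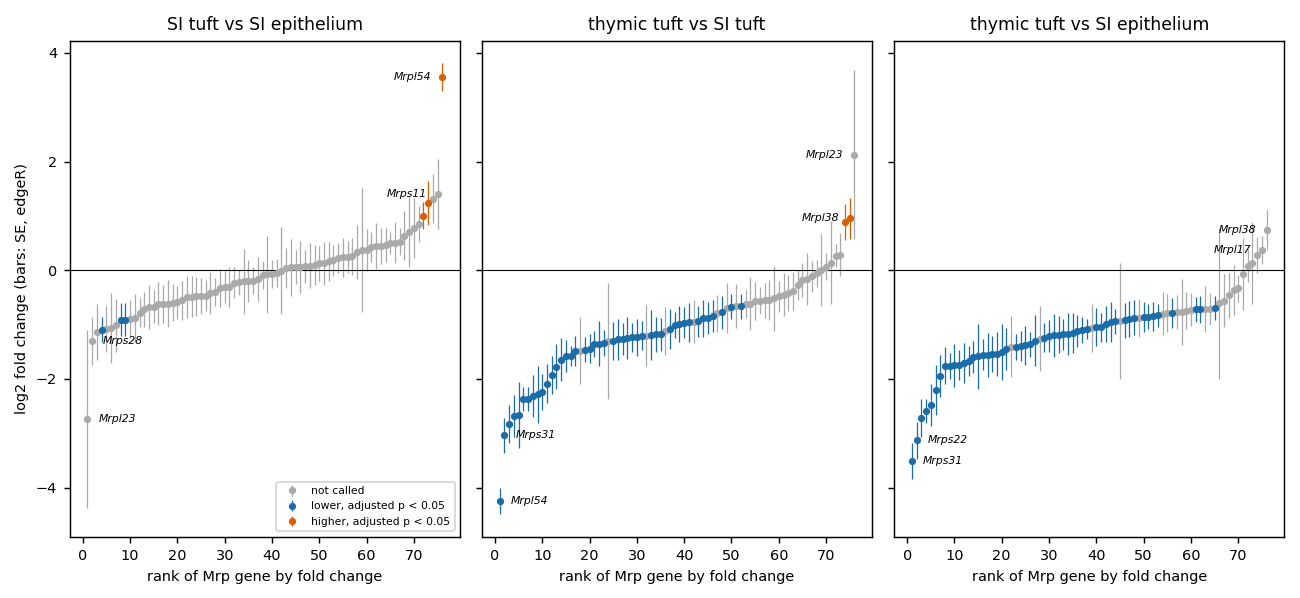
Log2 fold change (y axis, edgeR, bars SE) of the 76 tested Mrp genes, ranked (x axis), in the 3 comparisons; colour marks genes called at an adjusted p below 0.05. In SI tuft cells against SI epithelium 3 genes are called higher and 3 lower, whereas 44 and 52 are called lower in thymic tuft cells.

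Among the large subunit genes lower in thymic tuft cells, Mrpl12 (ENSMUSG00000039640, chromosome 11, 120484613 to 120489065, plus strand) had the largest decrease from SI epithelium and, after Mrpl54, the largest from SI tuft cells. It encodes the stalk protein noted above, which is also reported to bind the mitochondrial RNA polymerase. Levels were 59.0, 66.0 and 102 CPM in SI epithelium and 73.0, 70.2 and 98.9 CPM in SI tuft libraries. They were 9.13, 8.54, 20.5 and 7.45 CPM in thymic tuft libraries. The gut groups overlapped each other, and thymic libraries were far below both, with library 3 higher than the other 3. The log2 fold changes were -2.82 (SE 0.35, edgeR adjusted p = 3.40e-05) against SI tuft cells and -2.73 (SE 0.35, edgeR adjusted p = 4.45e-05) against SI epithelium. Slc25a10, a carrier gene 2775 bases downstream on the same strand, was lower as well, at 70.1 ± 5.44 CPM (SD, n = 3) in SI tuft and 14.2 ± 5.86 CPM (n = 4) in thymic tuft cells (edgeR adjusted p = 3.21e-05). Mrpl34 (chromosome 8, 71464959 to 71465747, plus strand) was at 87.1, 90.9 and 69.3 CPM, 85.8, 59.5 and 66.3 CPM and 12.9, 10.1, 16.7 and 15.0 CPM in the same order. Its thymic libraries were close together and did not overlap the gut libraries (log2 fold change -2.37 against SI tuft and -2.59 against SI epithelium, SE 0.22 in each, edgeR adjusted p = 2.72e-06 and 1.31e-06).

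Mrpl35, a small core protein gene of the large subunit, was at 35.4 to 40.9 CPM in SI epithelium, 28.4 to 43.2 CPM in SI tuft and 4.29, 13.2, 4.62 and 5.08 CPM in thymic tuft libraries (log2 fold change -2.31 and -2.48, edgeR adjusted p = 0.000345 and 0.000207), with thymic library 2 above the rest. Mrpl50, a large subunit gene without bacterial counterpart, was at 35.5 to 50.7, 18.2 to 24.7 and 10.1, 17.3, 3.51 and 4.83 CPM. It was lower than in SI epithelium (log2 fold change -2.20, SE 0.46, edgeR adjusted p = 0.00183), but its call against SI tuft cells (-1.19, SE 0.45, edgeR adjusted p = 0.0448) ended under 15 of 20 alternatives (0.00333 to 0.147), removal of any 1 library other than thymic library 2 among them. Mrpl54, Mrpl46 and Mrpl43, which were high in SI tuft cells, were lower in thymic tuft cells by log2 fold changes of -4.25 (SE 0.23), -2.68 (SE 0.39) and -2.37 (SE 0.23). Their decreases from SI epithelium were smaller, at -0.70 (SE 0.22), -1.45 (SE 0.38) and -1.36 (SE 0.23). The Mrpl54 call against SI epithelium (edgeR adjusted p = 0.0177) ended under 5 alternatives (0.00889 to 0.100), including removal of SI epithelium library 2.

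Small subunit genes included the largest decrease of the family from SI epithelium. Mrps31 (ENSMUSG00000031533, chromosome 8, 22411361 to 22429665, plus strand), encoding a protein found only in mitochondrial ribosomes, was at 49.7, 40.4 and 33.6 CPM in SI epithelium and 33.3, 27.8 and 28.0 CPM in SI tuft libraries. It was at 3.96, 3.88, 4.84 and 1.79 CPM in thymic tuft libraries. Thymic libraries lay below all others by a wide margin (log2 fold change -3.03 against SI tuft and -3.51 against SI epithelium, SE 0.33 in each, edgeR adjusted p = 9.93e-06 and 3.29e-06). Mrps22, also specific to mitochondrial ribosomes (chromosome 9, 98588730 to 98601660, minus strand), was at 24.8, 24.3 and 26.5 CPM, 14.0, 14.0 and 12.7 CPM and 3.44, 3.60, 2.89 and 1.58 CPM. Its 3 groups did not overlap, with SI tuft cells in between (log2 fold change -2.24, SE 0.33, and -3.13, SE 0.34, edgeR adjusted p = 0.00013 and 9.85e-06), although the step from SI epithelium to SI tuft cells did not pass the test (-0.89, edgeR adjusted p = 0.0882).

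Mrps11, the partner of Mrpl46, was at 9.56, 4.43, 11.1 and 0.836 CPM in thymic tuft libraries, below all SI tuft libraries (log2 fold change -2.67, SE 0.61, edgeR adjusted p = 0.00315) and without a call against SI epithelium (-1.26, SE 0.59, edgeR adjusted p = 0.096). Mrps2, encoding a core protein on the back of the small subunit, was at 79.2 to 112 CPM in SI epithelium, 46.3 to 73.0 CPM in SI tuft and 15.0, 12.0, 25.4 and 44.7 CPM in thymic tuft libraries (log2 fold change -1.95 against SI epithelium, SE 0.38, edgeR adjusted p = 0.00115). Its call against SI tuft cells (-1.27, edgeR adjusted p = 0.0144) ended without SI tuft library 2 and in the fit of those groups alone (0.000412 to 0.0631). Mrps28 was lower than in SI epithelium (2.70, 8.48, 6.21 and 4.35 CPM, log2 fold change -1.75, SE 0.40, edgeR adjusted p = 0.00325) and overlapped SI tuft cells.

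Both members called higher in thymic than in SI tuft cells were close to the threshold. Mrpl38, a large subunit gene, was at 18.2, 45.4 and 25.4 CPM in SI tuft and 34.1, 95.1, 57.3 and 43.3 CPM in thymic tuft libraries, and these ranges overlapped (log2 fold change 0.95, SE 0.37, edgeR adjusted p = 0.0476). Mrps5, a small subunit gene of the messenger RNA entry site, was at 12.6, 15.8 and 17.4 against 33.9, 25.6, 40.2 and 13.5 CPM, again with overlap, because thymic library 4 was as low as SI tuft libraries (log2 fold change 0.89, SE 0.33, edgeR adjusted p = 0.041). The Mrpl38 call ended under 8 alternatives, among them removal of any 1 SI epithelium library, of SI tuft library 2 or 4 or of thymic library 2 or 3 (0.00442 to 0.182). The Mrps5 call ended under 11, among them removal of any 1 SI library and of thymic libraries 1 or 3 (0.00205 to 0.166).

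The family holds some members with distinct roles. The 3 paralogs Mrps18a, Mrps18b and Mrps18c encode proteins at different sites. Mrps18c, which holds the bacterial position in the small subunit, was at 14.1 to 16.6, 15.9 to 25.5 and 5.84 to 9.39 CPM in SI epithelium, SI tuft and thymic tuft libraries and was lower in the thymus in both comparisons (log2 fold change -1.58 and -1.11, edgeR adjusted p = 0.000876 and 0.00801). Mrps18a, in the large subunit, was at 20.4 to 29.4, 24.1 to 29.3 and 10.1 to 20.6 CPM (log2 fold change -0.93 and -0.86, edgeR adjusted p = 0.0158 and 0.0241). These calls ended under 4 and 6 alternatives, among them removal of SI tuft library 2 or 3 and of SI epithelium library 1 or 2 or thymic library 1 (0.00387 to 0.0748 and 0.00576 to 0.0942). Mrps18b, in the small subunit, was at 7.51 to 10.6, 3.01 to 5.01 and 2.20 to 6.01 CPM, with a call against SI epithelium alone (-1.30, edgeR adjusted p = 0.0351) that ended under 10 of 19 alternatives, removal of SI epithelium libraries 1, 2 or 3 or of thymic libraries 1, 3 or 4 among them (0.0117 to 0.125).

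Mrps12, a decoding site protein gene, was at 14.2 to 17.8, 21.2 to 24.1 and 5.94 to 15.6 CPM and was lower than in SI tuft cells (log2 fold change -1.30, SE 0.35, edgeR adjusted p = 0.00815), a call that ended where a length trend was removed (adjusted p = 0.0627, over 0.000394 to 0.0627). Mrpl58, a peptidyl-tRNA hydrolase that frees stalled chains and is built into the large subunit, was at 26.4 to 27.9, 34.1 to 47.5 and 10.8 to 17.2 CPM and was lower in thymic tuft cells than in both (log2 fold change -1.46 and -0.94, edgeR adjusted p = 0.000222 and 0.00468). Mrps30 was at 6.60 to 9.92, 2.40 to 9.87 and 1.84 to 4.68 CPM with no call. Mrps36, of the dehydrogenase complex, was at 8.28 to 9.70, 11.9 to 19.1 and 0.741 to 4.58 CPM (log2 fold change -2.28 and -1.51, edgeR adjusted p = 0.00324 and 0.0282). Its call against SI epithelium ended under 6 alternatives, removal of any 1 SI epithelium library or of thymic library 3 among them (0.0118 to 0.0769).

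Members varied more among thymic libraries than among gut libraries. The median SD of log2 CPM over libraries was 0.59 for the 76 members in thymic tuft cells (0.53 for all tested genes), 0.20 in SI tuft cells (0.26) and 0.13 in SI epithelium (0.18). Among thymic libraries, library 2 was highest for 38 members and library 4 lowest for 31 and library 1 lowest for 25. Thymic libraries were made from the fewest cells, and the part of cell number in this spread was not tested. Without thymic library 2, 50 and 56 members were lower than in SI tuft cells and SI epithelium (24.0% and 23.0% of all genes).

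**Figure D4:**
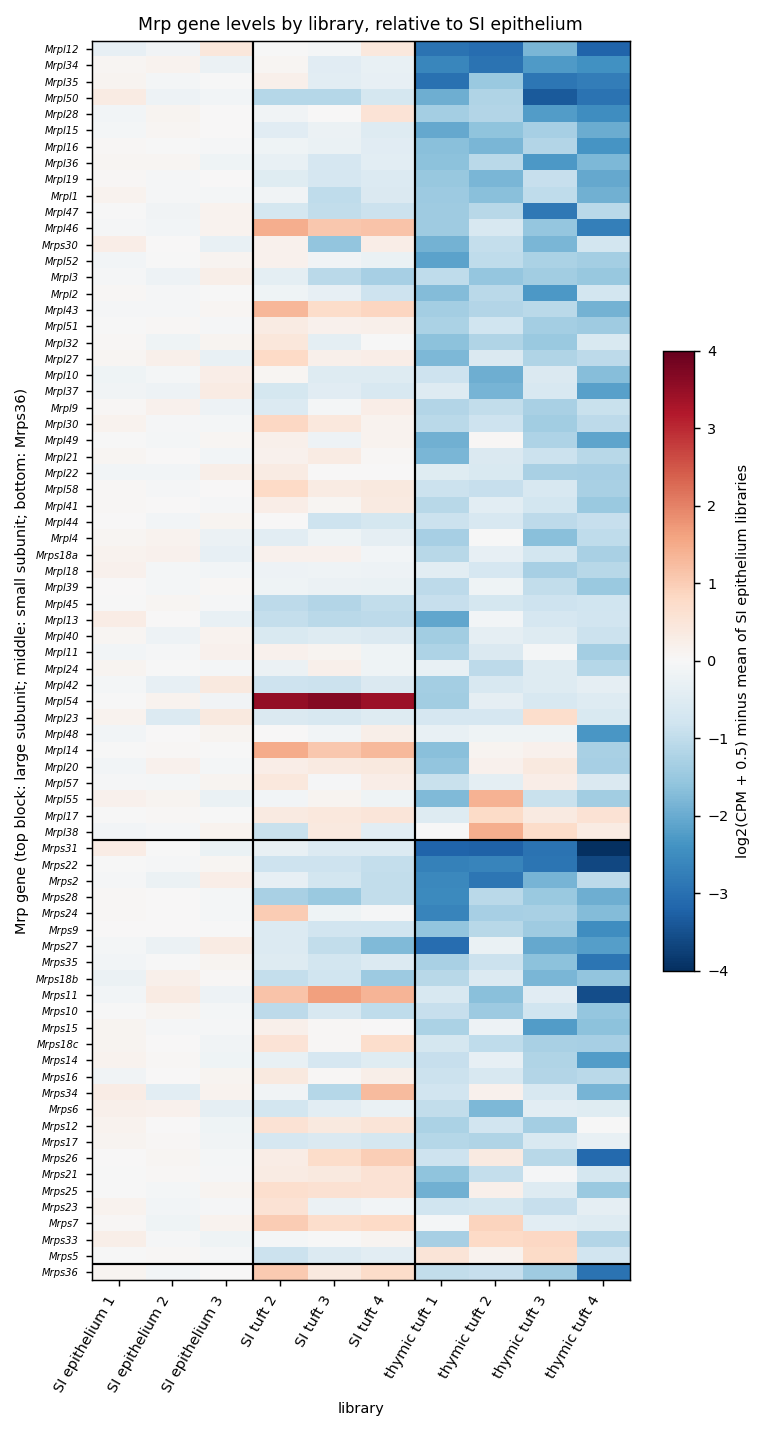
Level of the 76 tested Mrp genes (rows; large subunit, small subunit and Mrps36, each ordered by fold change between thymic tuft cells and SI epithelium) in the 10 libraries (columns), as log2(CPM + 0.5) minus the mean of the SI epithelium libraries, with the colour scale limited to -4 and 4. Most rows are blue in the 4 thymic columns, Mrpl54 is red in the 3 SI tuft columns, and thymic columns differ from each other more than the gut columns do.

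The mitochondrial ribosome has 5 further proteins whose genes lack an Mrp symbol. Ptcd3, encoding an RNA-binding protein of the small subunit, was at 56.3, 37.0 and 49.6 CPM in SI epithelium and 26.6, 28.9 and 19.4 CPM in SI tuft libraries. Thymic tuft libraries held 6.63, 9.25, 10.9 and 10.4 CPM. Its groups did not overlap, and it was lower in thymic tuft cells than in SI tuft cells (log2 fold change -1.42, SE 0.26, edgeR adjusted p = 0.000678) and SI epithelium (-2.36, SE 0.26, edgeR adjusted p = 1.37e-05). SI tuft cells had less of it than SI epithelium (-0.93, edgeR adjusted p = 0.031), a call that ended under 7 alternatives, removal of any 1 SI tuft library or of SI epithelium library 1 or 3 among them (0.00491 to 0.154). Aurkaip1 was lower in thymic tuft cells than in both (log2 fold change -1.72 and -1.03, edgeR adjusted p = 0.000949 and 0.0195); the latter call ended under 4 alternatives, among them removal of SI epithelium library 2 (0.00142 to 0.0674). Dap3, Chchd1 and Gadd45gip1 had no call, with log2 fold changes of -0.32 to -0.96 against SI tuft cells and -0.40 to -0.67 against SI epithelium.

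Other genes of the same pathway were taken from lists written with earlier results known, and their counts are descriptions. Of 26 genes for assembly and ribosomal RNA maturation 7 were lower and 0 higher in thymic than in SI tuft cells (5 and 0 against SI epithelium), with medians of -0.49 and -0.72. These lower calls were 26.9% and 19.2% of the list, near the 23.1% and 22.3% of all genes. Noa1, a GTPase of ribosome assembly, fell by 1.65 and 2.62 on the log2 scale (edgeR adjusted p = 0.00732 and 0.000388). Fastkd2, an RNA-binding protein of large subunit assembly, was lower in both (log2 fold change -1.49 and -2.80, edgeR adjusted p = 0.00907 and 0.000147). Its call against SI tuft cells ended in the fit of the tuft groups alone (edgeR adjusted p = 0.104). Mpv17l2, an assembly factor of the large subunit, rose from SI epithelium to SI tuft cells (33.5, 30.0 and 48.4 to 100.1, 99.2 and 88.4 CPM, log2 fold change 1.36, edgeR adjusted p = 0.00456). Of 16 translation factors and mRNA-stabilising proteins 7 were lower than in SI tuft cells (43.8%, beside 23.1% of all genes). Against SI epithelium 8 were lower (50%, beside 22.3%), with 0 higher in both. Lrpprc, which stabilises mitochondrial mRNAs, went from 93.6, 94.5 and 107 CPM to 48.3, 58.9 and 60.7 CPM and 16.7, 18.6, 21.3 and 12.4 CPM, lower in each of the 3 comparisons (log2 fold change -0.81, -1.70 and -2.51, edgeR adjusted p = 0.0168, 2.19e-05 and 9.20e-07). The first of these calls ended under 5 alternatives, among them removal of any 1 SI epithelium library or of SI tuft library 2 (0.00126 to 0.0731). Tsfm and Gfm1, elongation factors, were lower in thymic tuft cells than in both gut groups (log2 fold change -2.03 and -1.76 for Tsfm, -0.90 and -1.69 for Gfm1). The Gfm1 call against SI tuft cells ended in the fit of the tuft groups alone (edgeR adjusted p = 0.0579). Of 20 genes for charging mitochondrial tRNAs 7 and 10 were lower (35% and 50%, beside 23.1% and 22.3% of all genes) and 0 higher. The largest decrease was that of Sars2 (log2 fold change -2.95 and -3.30, edgeR adjusted p = 0.000298 and 0.000131).

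Of 13 genes for mitochondrial DNA maintenance and transcription 3 (23.1%) and 5 (38.5%) were lower in thymic tuft cells, the former at the share of all genes, and 1 was higher in both comparisons, Polg2, the accessory subunit of the mitochondrial DNA polymerase (5.23 to 14.8 CPM in SI tuft, 45.1 to 83.6 CPM in thymic tuft libraries, log2 fold change 2.82, edgeR adjusted p = 5.10e-05). Polrmt, the mitochondrial RNA polymerase, was lower than in SI tuft cells (-1.53, edgeR adjusted p = 0.00938). Top1mt and Tfb2m were lower in both tuft groups than in SI epithelium (log2 fold change -1.80 and -0.88 for SI tuft, then -1.94 and -0.95 for thymic tuft cells). In SI tuft cells the Top1mt call ended without any 1 SI library, and the Tfb2m call without SI epithelium library 1 or SI tuft library 3 (edgeR adjusted p at most 0.113 and 0.0657). Of 10 regulators of mitochondrial biogenesis 3 were higher and 2 lower than in SI tuft cells (30% and 20%, near the 28.5% and 23.1% of all genes). Against SI epithelium 1 was higher and 5 lower (10% and 50%, beside 28.6% and 22.3% of all genes). Esrra and Ppargc1a, a nuclear receptor and a coactivator that promote respiratory genes, were lower than in SI tuft cells (log2 fold change -2.04 and -0.91, edgeR adjusted p = 0.000293 and 0.00575). Myc, a growth regulator, was at 30.8 to 47.5 CPM in SI tuft and 147 to 249 CPM in thymic tuft libraries (edgeR adjusted p = 2.15e-06). Against SI epithelium Myc was lower in SI tuft cells (log2 fold change -1.56, edgeR adjusted p = 0.00033). In thymic tuft cells it was higher than in SI epithelium by less (0.94, edgeR adjusted p = 0.00278). Yy1 was also higher than in SI tuft cells (log2 fold change 0.73, edgeR adjusted p = 0.0131), a call that ended without SI tuft library 4 and with the length trend removed (at most 0.133). Ppargc1b was lower than in SI epithelium (-1.43, edgeR adjusted p = 0.0493), and Pprc1 lower in SI tuft cells than there (-1.28, edgeR adjusted p = 0.0372). The Ppargc1b call ended under 13 alternatives, removal of any 1 SI library or of thymic library 2 among them (edgeR or DESeq2 adjusted p at most 0.114). The Pprc1 call ended under 7, removal of any 1 SI library among them (edgeR adjusted p at most 0.173). The 8 proliferation markers summed to 1317 to 1642 CPM in SI epithelium, 348 to 508 CPM in SI tuft and 64.1 to 107 CPM in thymic tuft libraries. They were thus lower at both steps, while the Mrp sum was lower in thymic tuft libraries alone, and their part in that decrease was not tested.

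The messages that this ribosome translates, and the nuclear genes whose proteins join their products, were measured too. Of 13 mRNAs of mitochondrial DNA, 8 passed the filter and the other 5 had at most 11 counts in all. All 8 were called lower in thymic tuft cells than in both gut groups (23.1% and 22.3% of all genes were), with medians of -3.72 and -2.86. In SI tuft cells 6 were called higher than in SI epithelium (10.9% of all genes), with a median of 0.79 over the 8. mt-Nd4, for a subunit of complex I, was at 16454 ± 2231 CPM (SD, n = 3) in SI epithelium, 31982 ± 9630 CPM (n = 3) in SI tuft and 2417 ± 510 CPM (n = 4) in thymic tuft libraries. Of 80 nuclear genes for OXPHOS 71 were lower (23.1% of all genes) and 0 higher (28.5%) than in SI tuft cells (median -1.66). Against SI epithelium 60 were lower (22.3%) and 0 higher (28.6%), with a median of -1.23. Between the gut groups 13 were higher (10.9% of all genes) and 0 lower (11.4%) in SI tuft cells (median 0.39, beside -0.08 for the Mrp genes). Of 78 genes for proteins of the cytosolic ribosome 41 and 58 were lower (23.1% and 22.3% of all genes) and 1 higher in the thymic comparisons (medians -0.76 and -1.24). Between the gut groups 15 of these were lower (11.4% of all genes) and 1 higher (10.9%) in SI tuft cells (median -0.53). Both groups of ribosomal genes were thus low in thymic tuft cells beside all tested genes, and no test of the difference between the lists was made.

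**Figure D5:**
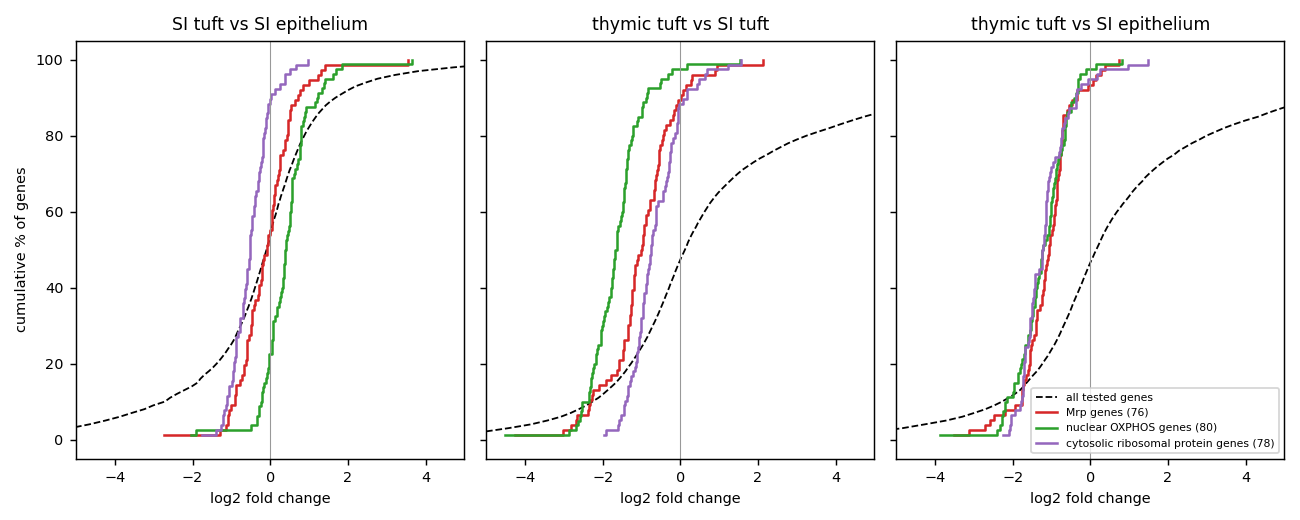
Cumulative percentage of genes (y axis) by log2 fold change (x axis, limited to -5 to 5) for the 76 Mrp genes, 80 nuclear OXPHOS genes, 78 cytosolic ribosomal protein genes and all tested genes in the 3 comparisons. In both thymic panels the curves of all 3 lists lie left of all genes over most of their length, with medians of -0.998 and -1.06 for the Mrp genes, and in the SI panel the Mrp curve crosses 50% beside that of all genes.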

How the data were processed

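Messenger RNA of 10 libraries (SI epithelium 3, SI tuft 3, thymic tuft 4) was measured by RNA-seq from poly(A) RNA, amplified with a kit that keeps no strand. The authors deposited raw counts per gene, not normalized, for each library. STAR, DESeq2 and the build GRCm38 are named per the submitters' processing notes; the counter, its strand setting and the annotation release are not given in the sources used here. Of 43432 gene identifiers, 42548 were matched to GENCODE M21 and 884 had no symbol. The family, the lists and the named genes were chosen with earlier results of these data known. Counts were filtered with filterByExpr (minimum count 10, minimum total 15), scaled by TMM and fitted in R 4.3.3 with edgeR 4.0.16 (limma 3.58.1) by the quasi-likelihood test over all 10 libraries, 1 mean per group, with Benjamini-Hochberg adjustment over 19281 genes and a threshold of 0.05. SE is the log2 fold change over the root of F. The 20 alternatives were other scalings, filters and fits, DESeq2 1.42.0, and removal of each library. Only the edgeR procedure was tested on simulated counts. Each library holds 1 mouse, and 3 counts correspond to 0.0433 to 0.0817 CPM. Genes named in every case were Mrpl12, Mrps12, Mrpl58, the Mrps18 paralogs, Mrps30, Mrps36 and the 5 mitoribosome genes without an Mrp symbol. Added were, per comparison and for Mrpl and Mrps symbols, the 4 called members with the largest log2 fold changes each way at 5 CPM or more in the higher group, members failing the filter, and the 3 highest and 3 lowest per kilobase. Of each other list up to 2 called genes each way were named. Mrpl30 and members named for exon overlap were chosen after their values were seen.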

Additional observations from a re-analysis of the deposited data

Results flagged for a closer look

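Among the 4 thymic tuft libraries, 1 library stood apart from the other 3 by Dixon's test for 6 of the 76 members checked. The threshold flags about 1 in 20 groups of independent, normally distributed values. CPM of genes from the same libraries need not be either, so how many arise by chance was not tested. Mrpl12 was at 20.5 CPM in library 3, with the others at 7.45 to 9.13 CPM. Mrpl23 was at 0.853 CPM in library 3, with the others at 0.0164 to 0.0380 CPM. Mrpl35 was at 13.2 CPM in library 2, against 4.29 to 5.08 CPM. Mrpl55 was at 41.1 CPM in library 2, against 4.11 to 7.92 CPM, and Mrps27 at 20.3 CPM in library 2, against 2.52 to 5.51 CPM. Mrpl48 was low in library 4, at 1.84 CPM against 9.06 to 10.0 CPM.

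Of the other genes, Tsfm, a translation elongation factor gene, was at 4.57 CPM in library 3 (others 1.92 to 2.25 CPM), and Polrmt, the mitochondrial RNA polymerase gene, at 16.7 CPM there (4.56 to 6.63 CPM). Yy1 was at 61.7 CPM in library 4 (39.6 to 43.4 CPM). Cd3e, a T cell marker, was at 4.90 CPM in library 3 (0.378 to 0.754 CPM), and Mki67, a proliferation marker, at 44.9 CPM in library 1 (22.2 to 22.7 CPM).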

How the results depend on the processing

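Between SI tuft cells and SI epithelium the counts of called members were small and moved with the processing: 5 lower with upper quartile scaling (12.3% of all genes), 1 lower with no filter (6.78%), 5 lower with a filter of 10 CPM (18.7%, median log2 fold change -0.18), 8 lower with the DESeq2 Wald test (15.8%), 14 higher and 21 lower with these groups alone (21.6% and 21.9%), and 1 lower with shared counts subtracted (8.97%). With 1 library left out, 1 to 6 were higher (7.08% to 13.4% of all genes) and 1 to 7 lower (6.91% to 14.7%), with medians of -0.185 to -0.0656. For thymic against SI tuft cells, the median was -0.76 with DESeq2 size factors and with the Wald test, and with size factors 33 members were lower (18.6% of all genes) in place of 44. There, 1 member was higher with no filter (18.4% of all genes), 1 with the replicate block (24.7%) and 0 with the length trend removed (25.5%). With the 2 groups alone 27 were lower (17.3%). With 1 library left out, 0 to 2 were higher (21.7% to 28.6% of all genes) and 32 to 50 lower (18.3% to 24.7%), with medians of -1.17 to -0.92. For thymic tuft cells against SI epithelium, DESeq2 size factors and the Wald test each gave 1 higher (32.1% and 35.2% of all genes) and a median of -0.83. There 35 (17.7% of all genes) and 43 (19.4%) were lower in place of 52. Leaving out 1 library gave 0 to 2 higher (20.4% to 29.2%) and 36 to 56 lower (16.5% to 24.2%), with medians of -1.19 to -1.01. The cause of these changes was not tested. Foxn1 and Krt5, markers of thymic epithelium, reversed between SI tuft cells and SI epithelium where shared counts were subtracted, to 2.15 and 5.95. Correlations were -0.04 to 0.10 for same-numbered libraries and -0.07 to 0.08 for libraries with different numbers. With so few libraries per group, these values cannot decide whether same-numbered libraries came from the same mouse. With the replicate block 3 members were higher and 2 lower (8.49% and 8.12% of all genes), then 1 and 43 (24.7% and 21.6%), then 0 and 51 (25.4% and 21.2%). Members near 1 CPM or below are limited by counting error.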
